A study of Mus musculus with 12 samples.

Results

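Acute phase proteins are plasma proteins that the liver makes in larger or smaller amounts after injury or inflammation. The set described here holds 10 such genes, taken by name from the gene tables: the serum amyloid A genes Saa1, Saa2, Saa3 and Saa4, the pentraxin gene Apcs, the orosomucoid genes Orm1, Orm2 and Orm3, and the carrier protein genes Hp and Lcn2. All 10 were found, on 1 row each, among 55401 genes, and all 10 were among the 16523 genes that passed a filter on low counts and were tested. RNA came from mouse liver in 12 libraries, labelled C57BL/6, male and 6 to 8 weeks old, in 4 groups of 3. All mice carried floxed Lpcat3 alleles on both chromosomes, which on their own leave the gene intact. The flox control and flox MCD groups had no cre, and the cre control and cre MCD groups (LKO in the labels) carried a cre transgene whose driver is not given in the sources used here. The MCD diet lacks methionine and choline and was fed for 8 weeks as a model of steatohepatitis, and all mice were fasted for 12 h before collection. The control groups are labelled NC. That label does not say what the control diet held, and no weeks of feeding are listed for it. After 8 weeks of diet the labelled age is unlikely to be the age at collection. Lpcat3 encodes an enzyme that places polyunsaturated fatty acids into phospholipids.

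Hepatocytes switch acute phase genes through cytokines. Interleukin-6 acts through STAT3, and interleukin-1 and tumour necrosis factor act through NF-kB and C/EBP factors. In the mouse Saa1, Saa2 and the orosomucoid genes are strongly inducible in hepatocytes, Saa3 is also made by macrophages and fat cells, Saa4 is described as constitutive, and Apcs, serum amyloid P component, is the main pentraxin of the mouse acute phase response.

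Libraries held 40883986 to 65516723 estimated counts, and 1 ribosomal RNA row took from 5.60% (the library labelled cre MCD 3) up to 43.0% (flox control 1) of them. The mitochondrial protein-coding genes took 14.9% to 30.0% in cre control and 7.39% to 10.9% in cre MCD libraries, which do not overlap, and 6.26% to 14.7% in flox control and 9.95% to 13.2% in flox MCD libraries. The TMM factors were 0.684 to 0.993 in the control and 1.02 to 1.25 in the MCD libraries, so scaling moves with the diet. With the ribosomal RNA row and the mitochondrial genes left out, the counts of members called were the same in all 6 comparisons. Levels are given as CPM, counts scaled to a library size corrected by TMM, in which 3 counts correspond to 0.0388 to 0.0896 CPM. Alb, which encodes albumin of hepatocytes, stood at 34172 to 80306 CPM in every library. Lpcat3 stood at 41.4 to 63.4 CPM in the 6 flox libraries while 5 of the 6 cre libraries held 16.1 to 23.3 CPM. The remaining one, the library labelled cre MCD 3, held 56.1 CPM, within the flox range. Its full-length Lpcat3 transcript stood at 23.2 FPKM (fragments per kilobase of transcript, scaled to library size), against 9.90 to 24.1 FPKM in the flox libraries and a listed value of 0 in the other 5 cre libraries. The members' differences and the list counts that rest on it are therefore given with and without it. All 12 libraries, labelled male, held Xist at 116 to 685 CPM and none of Kdm5d, Eif2s3y, Uty and Ddx3y of the Y chromosome, which goes against the sex in the labels. The labels do not state that the 3 libraries of a group came from separate mice, and the tests measure the spread between these libraries.

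Sequences of the 300 bases from 250 before to 50 after the annotated start were available for 8 of the 10 genes, all except Orm1 and Hp. They came from the set of RefSeq promoter windows (GRCm38.p6) used here. Saa1 and Saa2 are shown because their levels moved together across libraries. They lie on chromosome 7, with windows at chr7:46742931-46743230 on the minus strand and chr7:46751583-46751882 on the plus strand. Capitals mark bases that differ or have no partner when the pair is aligned, and sequences read 5′ to 3′.
Saa1: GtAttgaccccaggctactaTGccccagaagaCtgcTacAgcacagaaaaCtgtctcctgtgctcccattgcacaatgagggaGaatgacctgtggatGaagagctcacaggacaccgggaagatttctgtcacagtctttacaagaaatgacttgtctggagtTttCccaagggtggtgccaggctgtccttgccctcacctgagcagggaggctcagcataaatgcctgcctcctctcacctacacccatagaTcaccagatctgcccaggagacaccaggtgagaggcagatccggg
Saa2: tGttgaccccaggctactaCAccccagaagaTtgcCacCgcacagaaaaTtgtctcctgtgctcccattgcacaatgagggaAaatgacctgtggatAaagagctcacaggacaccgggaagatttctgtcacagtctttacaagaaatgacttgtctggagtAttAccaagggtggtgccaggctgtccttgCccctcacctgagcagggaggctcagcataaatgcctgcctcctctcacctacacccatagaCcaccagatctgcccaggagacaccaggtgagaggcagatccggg
The pair was identical at 287 of 301 aligned positions (95.4%), with 12 substitutions. Counted from 1 at the 5′ end of the Saa1 window, T165A and C168A fall where Saa1 reads TTTCCCAA, a match to the C/EBP motif TTNCNNAA that the Saa2 window does not hold at that place. Both windows hold TTGCACAA, another match to the same motif, further from the start. The annotated messenger RNAs of Saa1 and Saa2 (GENCODE vM21) were 93.9% identical, with a longest identical run of 99 bases, so the division of reads between them is uncertain. For Saa2 the 606-base transcript was aligned, which starts at 46751833. Another Saa2 transcript of 652 bases, which starts at 46751790, held more estimated counts than that one in every library and was not aligned.

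Orm2 and Orm3 are shown because they are neighbours on chromosome 4 and, over both genotypes, Orm2 rose and Orm3 fell on the MCD diet. Their windows are chr4:63362199-63362498 and chr4:63355908-63356207, both on the plus strand, and capitals again mark the differences between the pair.
Orm2: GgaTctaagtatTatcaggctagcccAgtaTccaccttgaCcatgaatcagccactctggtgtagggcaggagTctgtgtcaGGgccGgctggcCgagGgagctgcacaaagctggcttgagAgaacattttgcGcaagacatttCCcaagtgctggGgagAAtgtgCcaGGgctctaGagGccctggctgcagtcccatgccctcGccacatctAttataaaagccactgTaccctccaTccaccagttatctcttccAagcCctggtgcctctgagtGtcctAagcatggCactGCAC
Orm3: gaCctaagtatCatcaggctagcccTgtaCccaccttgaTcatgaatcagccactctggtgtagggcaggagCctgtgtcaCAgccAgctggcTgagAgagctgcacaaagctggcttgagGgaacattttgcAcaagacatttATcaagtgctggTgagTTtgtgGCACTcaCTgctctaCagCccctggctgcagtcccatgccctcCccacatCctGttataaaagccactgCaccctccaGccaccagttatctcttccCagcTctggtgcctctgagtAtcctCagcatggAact
These windows were identical at 263 of 305 aligned positions (86.2%), with 32 substitutions. C/EBP matches stood at 2 places in Orm2, TTGCGCAA and TTTCCCAA, and at 1 place in Orm3, TTGCACAA. Positions counted from 1 at the 5′ end of the Orm2 window, G135A lies in the shared match and C146A and C147T lie in the match that Orm3 does not hold. The messenger RNAs of Orm1 and Orm2 were 91.0% identical, those of Orm1 and Orm3 86.1%, and those of Orm2 and Orm3 88.0%, so their counts also carry some uncertainty from shared reads.

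The windows of Apcs (chr1:172895005-172895304, minus strand) and Saa3 (chr7:46715627-46715926, minus strand) are shown because Apcs had the largest rise among the members called higher and Saa3 the smallest genotype p on the MCD diet. Here capitals mark motif matches on either strand, written as they read on the gene's strand.
Apcs: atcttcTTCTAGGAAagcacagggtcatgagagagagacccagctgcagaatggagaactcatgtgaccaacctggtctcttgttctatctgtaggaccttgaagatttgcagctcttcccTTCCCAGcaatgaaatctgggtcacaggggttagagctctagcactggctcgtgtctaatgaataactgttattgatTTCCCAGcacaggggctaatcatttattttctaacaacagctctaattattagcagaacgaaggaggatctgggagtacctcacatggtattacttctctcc
Saa3: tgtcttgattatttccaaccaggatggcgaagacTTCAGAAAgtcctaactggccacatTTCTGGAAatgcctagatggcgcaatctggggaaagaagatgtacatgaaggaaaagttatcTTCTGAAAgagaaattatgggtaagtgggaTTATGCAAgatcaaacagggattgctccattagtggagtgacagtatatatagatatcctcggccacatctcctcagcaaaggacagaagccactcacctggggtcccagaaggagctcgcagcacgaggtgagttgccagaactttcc
In Apcs the capitals are a match to the STAT motif TTCNNNGAA and 2 matches to the interleukin-6 response element CTGGGAA, which reads TTCCCAG on the opposite strand. In Saa3 they are 4 matches to TTNCNNAA, all on the opposite strand. The C/EBP motif was held by 40.7% of all 32851 promoter windows in the set used here, 8.30% held the STAT motif, 11.1% the interleukin-6 element and 4.51% the NF-kB consensus. Of the 8 members, 7 held the first, 1 the second, 2 the third and 0 the last. A match describes letters in this window, and binding was not measured.

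In flox livers 3 of the 10 genes rose on the MCD diet and 2 fell. Apcs, Saa3 and Hp rose, Orm3 and Saa4 fell, and the other 5 did not pass the test. Over all tested genes 2.64% rose and 2.63% fell, in edgeR's quasi-likelihood test at a Benjamini-Hochberg adjusted p under 0.05. The median log2 fold change was 0.68 over the 10 members and 0.01 over all tested genes. The libraries of the 2 diets did not overlap for 5 members that were higher (Apcs, Saa3, Hp, Lcn2 and Orm2) and for 2 that were lower (Orm3 and Saa4), whereas such separation held for 13.8% and 10.3% of all tested genes.

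In cre livers 1 of the 10 genes, Apcs, rose and 2, Orm3 and Saa4, fell. The background was 3.73% higher and 3.04% lower. The median log2 fold change was −0.07 over the members and −0.01 over all genes. Libraries of the 2 diets did not overlap for Apcs, which was higher, and for Saa2, Saa4 and Orm3, which were lower, against 16.4% and 14.7% of all genes. Over both genotypes together Apcs, Hp and Orm2 rose and Saa4 and Orm3 fell, against 8.03% and 6.92% of all genes. The Hp call (log2 fold change 0.68, adjusted p = 0.0215) was lost on leaving out flox control 2, cre control 1 or 2, flox MCD 1 or 3, or cre MCD 2 (adjusted p up to 0.0674). The Orm2 call (log2 fold change 0.87 ± 0.27 SE, adjusted p = 0.0438) was lost on leaving out any of 10 single libraries, among them the library labelled cre MCD 3 (adjusted p = 0.0786).

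With cre MCD 3 left out, the members called in cre livers were Apcs, higher, and Saa2, Saa4 and Orm3, lower, against 1.7% and 1.48% of all genes. Over both genotypes they were then Apcs and Hp, higher, and Saa2, Saa4 and Orm3, lower, against 5.43% and 4.97%. Saa2 over both genotypes had a log2 fold change of −1.04 (adjusted p = 0.132) with all libraries and −1.59 (adjusted p = 0.0224) without that one.

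**Figure D1:**
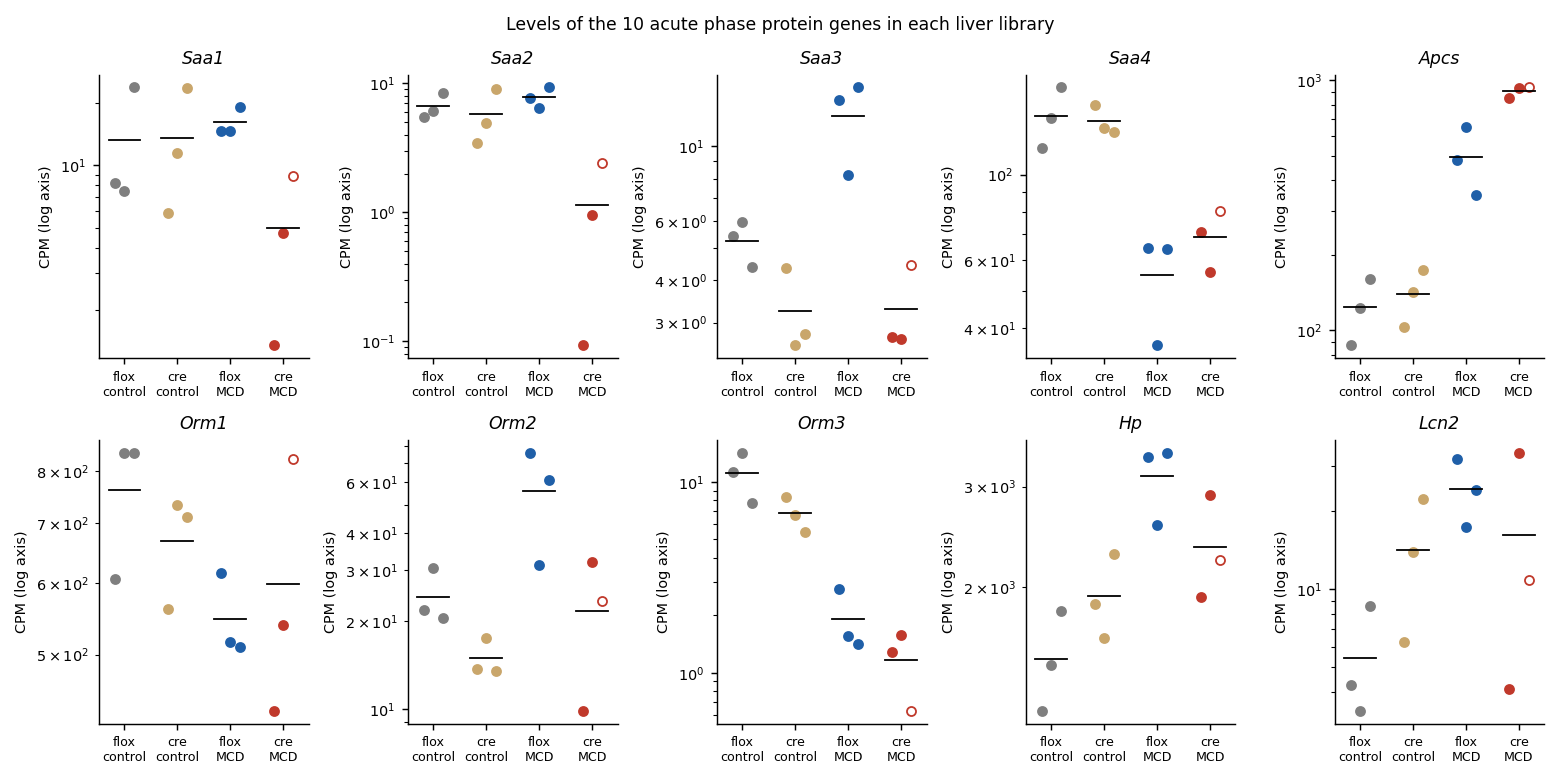
Level of each of the 10 genes in each library, in CPM on a log axis, for the 4 groups of 3; lines are group means and the open circle is the library labelled cre MCD 3. Apcs stands higher, and Orm3 and Saa4 lower, in the 6 MCD libraries, whereas Saa2 is lowest in the 3 cre MCD libraries.

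**Figure D2:**
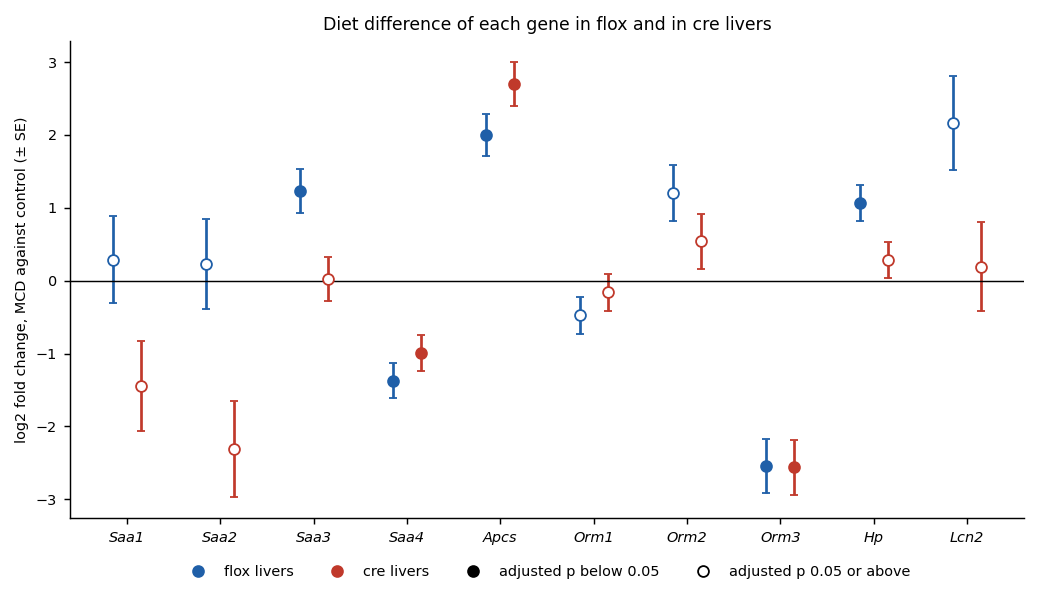
Log2 fold change of MCD against control diet for each gene (points) with its SE (bars), in flox livers (blue) and cre livers (red), filled where the adjusted p is below 0.05. Apcs, Saa4 and Orm3 are filled in both genotypes, and Saa3 and Hp in flox livers.

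Apcs encodes serum amyloid P component, a pentraxin that binds phospholipids, DNA and amyloid fibrils. It stood at 87.1, 122 and 161 CPM in flox control livers and at 482, 648 and 348 CPM in flox MCD livers. In cre control they were 103, 142 and 175 CPM, and the cre MCD libraries held 852, 935 and 936 CPM. Every MCD library was above every control library, and the cre MCD libraries were above the flox MCD libraries. The rise was 3.99-fold in flox (log2 fold change 2.00 ± 0.29 SE, adjusted p = 0.00147) and 6.48-fold in cre (2.70 ± 0.30, adjusted p = 0.000233). The difference between these rises, 0.70 ± 0.40 on the log2 scale, did not pass the test (adjusted p = 0.621). Both calls held in every alternative computed, and leaving out cre MCD 3 gave a log2 rise in cre of 2.68 (adjusted p = 0.000733).

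Orm3 encodes the least expressed of the 3 orosomucoids, acidic plasma glycoproteins that carry lipids and drugs. It stood at 11.2, 14.2 and 7.77 CPM in flox control libraries and at 2.74, 1.56 and 1.42 CPM in flox MCD libraries. The cre control libraries held 8.33, 6.72 and 5.43 CPM, and the cre MCD libraries held 1.28, 1.58 and 0.632 CPM. All MCD libraries were below all control libraries. Orm3 fell by 2.54 ± 0.37 (SE) on the log2 scale in flox (adjusted p = 0.00156) and by 2.56 ± 0.38 in cre (adjusted p = 0.00187). Leaving out cre MCD 3 gave a log2 fold change of −2.25 in cre (adjusted p = 0.00603).

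Orm2, an inducible orosomucoid, had values in the other direction. It stood at 21.8, 30.4 and 20.5 CPM in flox control libraries and at 75.8, 31.2 and 60.9 CPM in flox MCD libraries. The cre control libraries held 13.7, 17.6 and 13.5 CPM, and the cre MCD libraries held 9.84, 31.9 and 23.4 CPM. In flox the diets did not overlap, by less than 1 CPM between the nearest pair, whereas in cre they did. The log2 fold changes of 1.21 ± 0.38 in flox (adjusted p = 0.0894) and 0.54 ± 0.38 in cre (adjusted p = 0.412) did not pass the test. Leaving out cre MCD 3 gave 0.49 in cre. DESeq2 called the flox difference (adjusted p = 0.0290).

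Orm1, the most abundant orosomucoid, showed no called difference. It held 607 to 838 CPM in flox control, 510 to 616 in flox MCD, 562 to 734 in cre control and 433 to 825 in cre MCD libraries, and the groups overlapped. Per length the order was the same, with mean levels in flox control livers of 703 FPKM for Orm1, 22.0 FPKM for Orm2 and 9.91 FPKM for Orm3. Its log2 fold changes of −0.48 ± 0.25 in flox and −0.16 ± 0.25 in cre turned to 0.08 and 0.14 on the log2(FPKM + 1) scale, so they carry no stable sign. Without cre MCD 3 the cre value was −0.46. When the 3 orosomucoid rows were summed, the sum followed Orm1 and neither the Orm3 fall nor the Orm2 difference could be seen in it.

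Saa4 encodes the constitutive serum amyloid A, an apolipoprotein of high density lipoprotein. Its levels were 117, 141 and 168 CPM in flox control, 64.4, 36.1 and 64.3 CPM in flox MCD, 151, 132 and 129 CPM in cre control, and 70.9, 56.0 and 80.3 CPM in cre MCD libraries. No MCD library reached a control library. Saa4 fell by 1.37 ± 0.24 (SE) on the log2 scale in flox (adjusted p = 0.00479) and by 0.99 ± 0.24 in cre (adjusted p = 0.0288). On the log2(FPKM + 1) scale, on which the median of all genes in flox lay 0.26 above 0, the differences were −0.84 (adjusted p = 0.0849) and −0.64 (adjusted p = 0.212). The cre call rested on single libraries: without cre control 1, 2 or 3 or cre MCD 2 the adjusted p reached at most 0.138. Leaving out cre MCD 3 gave −1.11 (adjusted p = 0.0454).

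Saa3 encodes the serum amyloid A that macrophages and adipocytes also make in the mouse. It stood at 5.40, 5.93 and 4.37 CPM in flox control and at 13.6, 8.19 and 14.9 CPM in flox MCD libraries. The cre control libraries held 4.36, 2.57 and 2.78 CPM, and the cre MCD libraries held 2.71, 2.68 and 4.45 CPM. The flox MCD libraries were above all 9 others. Saa3 rose 2.34-fold in flox (log2 fold change 1.23 ± 0.30, adjusted p = 0.0315), and its difference in cre was 0.02 ± 0.30 (adjusted p = 0.978), or −0.27 without cre MCD 3. The flox call was lost on leaving out flox control 1, 2 or 3, cre control 3, or flox MCD 1 or 3 (adjusted p up to 0.144).

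Markers of other cell types were counted beside Saa3. Of 12 macrophage markers 5 rose and 1 fell in flox on MCD, with the called Trem2 at 4.18 to 12.1 CPM against 0.267 to 1.44 CPM, and 1, Gpnmb, rose in cre, a call lost without cre MCD 3. The summed level of the list overlapped between the flox diets, at 106 to 193 CPM in flox control, 152 to 208 in flox MCD, 126 to 144 in cre control and 103 to 146 in cre MCD libraries. Of 11 neutrophil markers 5 could be tested and 1, S100a8, rose in flox, with sums of 2.63 to 3.51, 8.44 to 10.6, 2.60 to 5.58 and 4.41 to 6.62 CPM in the same order. The neutrophil sums of flox MCD libraries were above those of the 9 others. Ly6g was at 0 in all libraries but the one labelled cre MCD 3 (0.0790 CPM). Of 6 adipocyte markers 2 could be tested and 0 were called, in edgeR at either genotype. Their sums were 25.7 to 32.8, 25.1 to 35.9, 8.33 to 39.0 and 9.84 to 17.1 CPM in the same order, so flox MCD lay above cre MCD, and Plin4, a lipid droplet protein, made up nearly all of them. Lep and Retn were at 0 in all libraries, and Adipoq was at 0 in all but flox control 3 (0.146 CPM). Of 7 cholangiocyte markers, 6 of them tested, 0 were called in flox and 1, Epcam, rose in cre, a call lost without cre MCD 3. The cholangiocyte sums were 42.1 to 60.5, 66.03 to 137, 28.3 to 70.2 and 78.3 to 129 CPM, higher in MCD than in control libraries of each genotype without overlap. Their part in the results on the members was not tested, and in bulk tissue more cells of a type and more RNA per cell cannot be told apart.

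Hp encodes haptoglobin, which binds free haemoglobin, and was the most abundant member. Its levels were 1212, 1456 and 1815 CPM in flox control and 3386, 2563 and 3439 CPM in flox MCD libraries. The cre control libraries held 1864, 1624 and 2284 CPM, and the cre MCD libraries held 1921, 2899 and 2226 CPM. The diets were apart in flox and overlapped in cre. Hp rose 2.09-fold in flox (log2 fold change 1.07 ± 0.25, adjusted p = 0.0254), and its difference in cre was 0.29 ± 0.25 (adjusted p = 0.522), or 0.33 without cre MCD 3. The call was lost with only the 6 flox libraries in the fit (adjusted p = 0.0848) and without flox control 1 or 2 or flox MCD 1 or 3 (adjusted p up to 0.106). Hp made up 54.1% to 76.6% of the summed level of the 10 genes.

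Lcn2 encodes lipocalin 2, which binds bacterial siderophores that carry iron and is made by hepatocytes and neutrophils. The libraries held 4.27, 3.39 and 8.63 CPM in flox control and 31.9, 17.4 and 24.1 CPM in flox MCD. The cre control libraries held 6.27, 14.0 and 22.4 CPM, and the cre MCD libraries held 4.13, 33.7 and 10.8 CPM. The flox diets were fully apart, but the cre MCD libraries spanned nearly the whole range of the 12 libraries. The flox difference, 4.49-fold (log2 fold change 2.17 ± 0.64), just missed the threshold (adjusted p = 0.0700), and 9 alternatives placed it under the threshold, among them DESeq2 (adjusted p = 0.0404). In cre the log2 fold change was 0.19 ± 0.61, and it became −0.92 without cre MCD 2 and 0.42 without cre MCD 3.

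Saa1 and Saa2, the acute phase serum amyloids, showed no called difference between diets in flox and stood lowest in cre MCD livers. Saa2 held 5.48, 6.09 and 8.46 CPM in flox control and 7.76, 6.46 and 9.32 CPM in flox MCD libraries. The cre control libraries held 3.48, 4.90 and 9.01 CPM, and the cre MCD libraries held 0.0928, 0.953 and 2.40 CPM, where the lowest value rests on 4 estimated counts. The 3 cre MCD libraries were below all 9 others. The log2 fold change of the diet was 0.23 ± 0.61 in flox (adjusted p = 0.901) and −2.31 ± 0.66 in cre (adjusted p = 0.0514). Leaving out the library labelled cre MCD 3 gave −3.42 in cre (adjusted p = 0.0141), and DESeq2 with all libraries gave an adjusted p of 0.00483.

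Saa1 varied more within groups. It held 8.24, 7.54 and 23.8 CPM in flox control, 14.7, 14.6 and 19.1 CPM in flox MCD, 5.85, 11.4 and 23.6 CPM in cre control, and 1.35, 4.69 and 8.83 CPM in cre MCD libraries. The highest control library of each genotype stood above all MCD libraries. The log2 fold change was 0.29 ± 0.60 in flox (adjusted p = 0.867) and −1.45 ± 0.62 in cre (adjusted p = 0.164). Without flox control 3 the flox difference was 1.04, and leaving out cre MCD 3 gave a cre difference of −2.16 (adjusted p = 0.105).

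Part of the Saa1 counts came from an annotated retained intron transcript of 1 exon and 2446 bases, which spans most of the gene, and not from the 609-base protein-coding messenger RNA. The retained intron transcript took 74.1% and 72.9% of the Saa1 counts in flox control 1 and 2, and 8.96% in flox control 3. In flox MCD libraries it took 1.73% to 6.15%. The share was 0.522% to 31.3% in cre control and 15.2% to 54.4% in cre MCD libraries. The protein-coding transcript stood at 1.89, 2.50 and 28.8 FPKM in flox control and at 23.9, 23.7 and 28.7 FPKM in flox MCD libraries. In cre control it stood at 4.91, 12.3 and 27.3 FPKM and in cre MCD at 1.11, 5.96 and 6.35 FPKM. Control livers of both genotypes thus spanned low and high values, whereas flox MCD livers were all high. The shares above are of estimated counts, which grow with transcript length. Per length the retained intron transcript stood at 1.35 and 1.68 FPKM in flox control 1 and 2. It lay below the protein-coding transcript in every library. With the members counted by protein-coding transcripts alone, the Saa1 log2 fold change was 0.84 in flox (adjusted p = 0.674) and −2.11 in cre (adjusted p = 0.146), and the same 5 members were called in flox. For Saa2 the retained intron share was at most 25.0%, in cre MCD 1 with its 4 counts.

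**Figure D3:**
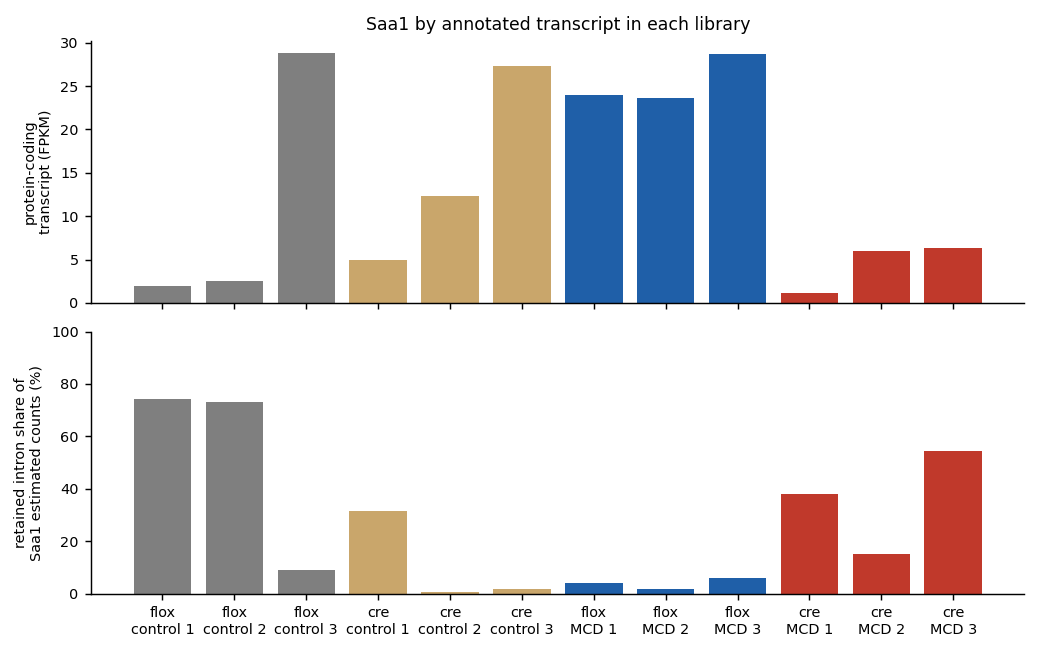
Saa1 in each library: the upper bars give the protein-coding transcript in FPKM, and the lower bars give the share of the gene's estimated counts assigned to the retained intron transcript in percent, coloured by group. The shares of 74.1% and 72.9% in flox control 1 and 2 go with coding levels of 1.89 and 2.50 FPKM. The retained intron levels there were 1.35 and 1.68 FPKM.

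Cre and flox livers on the MCD diet were compared next, by the genotype in the labels. The groups also differ in the cre transgene, and the library labelled cre MCD 3 held Lpcat3 within the flox range. The comparison therefore does not stand for loss of Lpcat3 alone. None of the 10 members passed edgeR's test. Of all genes 0% were called higher and 0.0121% lower. Lpcat3 itself was not called (log2 fold change −0.69 ± 0.35, adjusted p = 0.657), so a missing call does not show that a difference is absent. At an unadjusted p under 0.05 there were 5 members, 1 higher (Apcs) and 4 lower (Saa1, Saa2, Saa3 and Orm2), where 3.32% of all genes were higher and 5.01% lower. DESeq2 called 3 members lower (Saa2, Saa3 and Orm2), against 0.418% of all genes higher and 0.6% lower. The 3 cre libraries lay below the 3 flox libraries for Saa1, Saa2 and Saa3 and above them for Apcs, a separation that 9.42% and 8.13% of all genes showed.

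Saa3 was closest to the threshold, with a mean of 3.28 ± 1.02 CPM (SD, n = 3) in cre MCD against 12.2 ± 3.56 CPM (SD, n = 3) in flox MCD livers and a log2 fold change of −1.89 ± 0.31 SE (adjusted p = 0.0800 in edgeR). Saa2 had −2.74 ± 0.66 (adjusted p = 0.261) and Saa1 −1.70 ± 0.62 (adjusted p = 0.463). Apcs had 0.88 ± 0.28 (adjusted p = 0.376), Orm2 −1.37 ± 0.38 (adjusted p = 0.278), Hp −0.41 ± 0.25, Lcn2 −0.59 ± 0.61 and Orm3 −0.72 ± 0.37. Leaving out single libraries moved Hp between −0.60 and −0.28, Lcn2 between −1.71 and −0.13 and Orm3 between −1.01 and −0.37. With cre MCD 3 left out no member was called, against 0.00583% of genes higher and 0.0117% lower, and the log2 fold changes were −2.18 for Saa3 (adjusted p = 0.0578), −3.86 for Saa2 (adjusted p = 0.0701) and −2.41 for Saa1 (adjusted p = 0.239). The others were 0.86 for Apcs, −1.42 for Orm2, −0.38 for Hp, −0.37 for Lcn2 and −0.41 for Orm3, and Orm1 turned from 0.13 to −0.17. The deviations of cre MCD 3 from its group mean correlated most with those of flox control 3 (r = 0.517). Without flox control 3 alone Saa3 (adjusted p = 0.0510) and Saa2 (adjusted p = 0.186) did not pass, whereas without both libraries Saa3 (adjusted p = 0.0322) and Saa2 (adjusted p = 0.0411) passed the test. In that last fit 16 of 17049 genes were called higher and 30 lower. Flox control 3 held full-length Lpcat3 at 21.7 FPKM, within the flox range, so its label gives no ground to leave it out. The pair was chosen with these data known, so these 2 calls are given as a description.

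**Figure D4:**
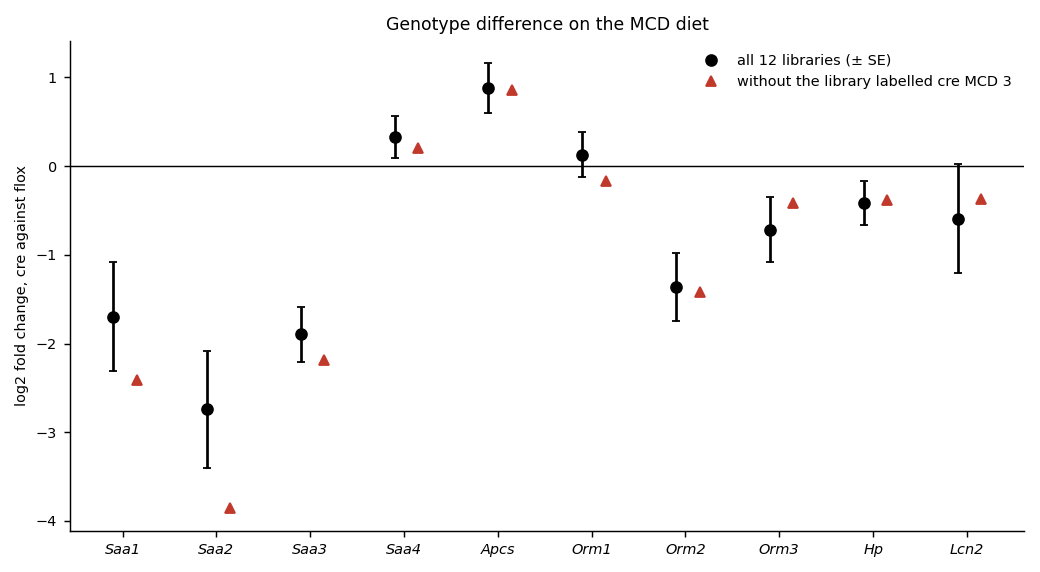
Log2 fold change of cre against flox livers on the MCD diet for each gene, from all 12 libraries (black points with SE) and without the library labelled cre MCD 3 (red triangles). Saa1, Saa2 and Saa3 lie furthest below 0, from −1.70 to −2.74, and move to between −2.18 and −3.86 without that library.

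On the control diet none of the 10 members was called between genotypes, against 0.0182% of genes higher and 0.0242% lower. At an unadjusted p under 0.05 there were 2, Saa3 lower (log2 fold change −0.69 ± 0.30, adjusted p = 0.688) and Lcn2 higher (1.38 ± 0.63, adjusted p = 0.688), where 3.37% of all genes were higher and 3.84% lower. DESeq2 called no member, against 0.179% and 0.192% of all genes. Orm2 and Orm3 had −0.70 ± 0.38 and −0.70 ± 0.35. Lpcat3 had −1.29 ± 0.36 (adjusted p = 0.567 in edgeR) and was not called, though every cre control library lay below every flox control library.

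The difference of the diet effects between genotypes, cre minus flox, was called for none of the 10 members in edgeR or DESeq2, and for 0% of genes higher and 0.00605% lower in edgeR and 0.352% and 0.224% in DESeq2. At an unadjusted p under 0.05 there were 4 members, all with a smaller or more negative diet effect in cre, where 4.05% of all genes were higher and 4.92% lower: Saa2 (−2.54 ± 0.89, adjusted p = 0.492), Saa3 (−1.21 ± 0.43, adjusted p = 0.492), Lcn2 (−1.98 ± 0.88, adjusted p = 0.542) and Hp (−0.78 ± 0.35, adjusted p = 0.551). Saa1 had −1.74 ± 0.86 and Orm2 −0.67 ± 0.53. Without cre MCD 3 the differences were −3.65 for Saa2, −1.50 for Saa3, −1.75 for Lcn2, −0.74 for Hp, −2.45 for Saa1, −0.73 for Orm2 and 0.68 for Apcs, with adjusted p from 0.295 up. The calls of Saa3 and Hp in flox and not in cre therefore do not show that the diet effect differed between genotypes.

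Across the 12 libraries 45 pairs of members were compared on log2(CPM + 1). By Pearson's r 6 passed an adjusted permutation p of 0.05, and 3 of these passed by Spearman's rho. The permutations ignored the 4 groups, so 2 members that both move with the diet can pass on that alone. Saa1 and Saa2 had r = 0.92 (permutation p = 2e-05, adjusted 0.0009) and rho = 0.89 (permutation p = 0.00029, adjusted 0.00652). Their r was 0.83 without the 2 libraries furthest from the median and 0.94 for deviations from the group means. The division of reads between these 2 similar genes is uncertain, and its part in their r was not tested. Hp and Lcn2 had r = 0.85 (permutation p = 0.00064, adjusted 0.00821), rho = 0.83 (permutation p = 0.00133, adjusted 0.0199), 0.83 without the 2 furthest libraries and 0.76 within groups. Apcs and Orm3 had r = −0.94 (permutation p = 7e-05, adjusted 0.00157) and rho = −0.90 (permutation p = 0.00014, adjusted 0.0063), and −0.93 without the 2 furthest libraries. Within groups it was −0.36, so the pooled value rests on the diet groups. The 3 others were Saa3 with Orm2, Saa4 with Apcs and Saa4 with Orm3, at r of 0.84, −0.82 and 0.81, with 0.46, −0.25 and −0.12 within groups. The pooled values of the 2 pairs with Saa4 thus also rest on the diet groups. Saa3 with Orm2 was 0.55 without the 2 furthest libraries. Without cre MCD 3 the 6 values of r lay at 0.93, 0.85, −0.93, 0.84, −0.86 and 0.86 in the order given.

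Among 8084 other genes with a mean of at least 5 CPM, the closest in pattern by Pearson's r over the 12 libraries are given as a description, since libraries share diet groups. They were Fah (r = 0.99) and Uroc1 (0.98) for Saa4, Htatip2 (0.97) and Ces2g (0.96) for Apcs, and Gpx3 (0.95) for Hp. For Orm2 they were Lyz2 (0.92) and Laptm5 (0.91), and for Saa3 Mpeg1 (0.91), Lcp1 (0.89) and Laptm5 (0.89). Pros1 (0.84 and 0.90) and Foxa3 (0.83 and 0.84) stood among the 3 closest genes for both Saa1 and Saa2. The closest were Cep85 (0.94) for Orm3, Erap1 (0.93) for Orm1 and Mfsd12 (0.89) for Lcn2.

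Among other positive acute phase proteins more genes fell than rose. Of 39 other positive acute phase proteins tested (40 listed) 1 rose and 7 fell in flox, and 1 rose and 4 fell in cre. The median log2 fold changes were −0.51 and 0.03, against 0.01 and −0.01 over all genes. Without cre MCD 3 the counts in cre were 0 and 4, and those in flox 1 and 8. Slpi, a secreted protease inhibitor, rose in both genotypes, from 0 to 0.871 CPM up to 5.46 to 12.7 CPM in flox and from 0.0696 to 0.358 CPM up to 0.719 to 4.55 CPM in cre, where the call was lost without cre MCD 3. C4b, a complement component, fell by 1.68 ± 0.21 in flox (adjusted p = 0.000437) and by 1.68 ± 0.21 in cre (adjusted p = 0.00057) on the log2 scale. Mt1 and Mt2, metallothioneins that bind zinc, fell in cre, the second by 3.12 ± 0.51. Serpina1d, a protease inhibitor of a family with near-identical copies, fell by 1.43 ± 0.26 in flox.

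Of 22 negative acute phase proteins, which fall in a classical response, 2 rose and 6 fell in flox, and 2 rose and 4 fell in cre (2 and 3 without cre MCD 3). The risers in both were Apoa4, an apolipoprotein, and Serpina7, which carries thyroxine, with log2 fold changes of 4.41 ± 0.50 and 2.49 ± 0.41 in flox and 3.34 ± 0.48 and 3.42 ± 0.43 in cre. Itih1, a hyaluronan-binding inhibitor chain, fell by 1.38 ± 0.20 in flox and by 1.21 ± 0.20 in cre. The hepatocyte list, 9 genes, had 2 lower in flox (Hnf4a and Tat) and 0 called in cre, with sums of 59814 to 110871 CPM in flox control, 50507 to 70799 CPM in flox MCD, 68867 to 92085 CPM in cre control and 91476 to 102082 CPM in cre MCD libraries. The diets overlapped in each genotype, and the cre MCD libraries lay above the flox MCD libraries.

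**Figure D5:**
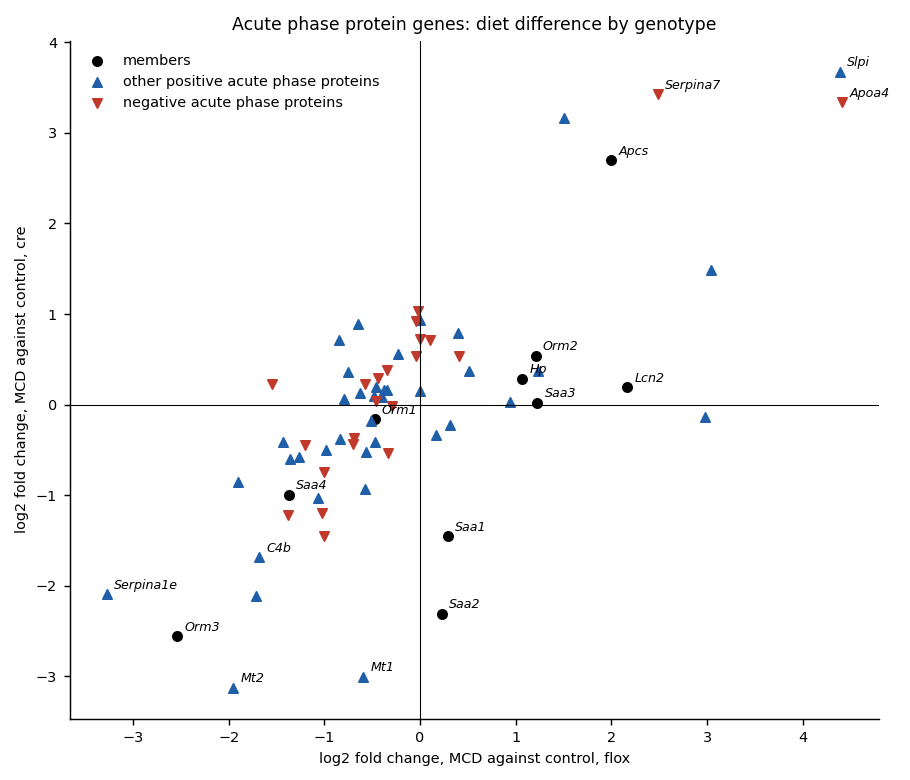
Log2 fold change of MCD against control diet in flox (horizontal) and cre livers (vertical) for the 10 members (black circles) and the tested genes of the positive (blue) and negative (red) acute phase lists. Apcs lies high in both and Orm3 low in both, and Saa1 and Saa2 lie near 0 in flox and below 0 in cre.

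Upstream, the cytokine signalling list had 0 genes higher and 4 lower of 32 tested (36 listed) in each genotype. Il6, the main inducer, was not tested, at 0 to 0.255 CPM. In flox the called genes were Il1rap and Il6ra, receptor subunits for interleukin-1 and interleukin-6, Lifr, a receptor of the same cytokine family, and Nfkbia, an inhibitor of NF-kB, with log2 fold changes of −1.36 ± 0.22, −1.02 ± 0.25, −1.12 ± 0.20 and −0.69 ± 0.18. In cre livers Il1rap and Nfkbia fell too, by 1.37 ± 0.22 and 0.70 ± 0.18, along with the cytokines Il1a and Il1b, and without cre MCD 3 Il1rap alone was called. Of 19 transcription factors of the hepatic acute phase response 3 rose and 1 fell in flox, and 0 were called in cre by edgeR. Jun, at 14.1 to 25.7 CPM in flox control and 29.9 to 56.1 CPM in flox MCD libraries, rose by a log2 fold change of 1.19 ± 0.25. Relb also rose, a call lost without cre MCD 3. Fos rose by 1.59 ± 0.38, and Hnf4a, a factor of hepatocyte identity, fell by 0.88 ± 0.20. Of 24 receptors and partners tested (26 listed) Cd36, a scavenger receptor, and Hmox1, which breaks down haem, rose in both genotypes, by 1.82 ± 0.24 and 2.06 ± 0.35 in flox and by 1.05 ± 0.24 and 1.36 ± 0.35 in cre, where neither was called without cre MCD 3.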

How the data were processed

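The 12 RNA-seq libraries of mouse liver, in 4 groups of 3, were analysed from the deposited tables. The submitters' processing notes name cutadapt, FastQC, HISAT2, StringTie, edgeR and mm10, without versions or roles. The deposited tables hold estimated counts per gene and transcript and FPKM values, both made by the authors. The table headers name no unit. For 98.4% to 99.4% of the transcripts above 0 in a library the estimated count lay within 1 of the product of FPKM, transcript length and 1 factor for the library, rounded up, so the counts are not reads counted 1 by 1. The floor of 3 counts covers counting error alone. The 10 members, the gene lists and the settings were chosen with earlier results of these data known, and retained intron shares were examined after the transcript values were seen.

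Tests used R 4.3.3 and edgeR 4.0.16: filterByExpr by group, TMM scaling, and 2-sided quasi-likelihood F tests, with every library in 1 model of group means, adjusted by Benjamini-Hochberg over 16523 genes and called under 0.05. SE was taken as the size of the log2 fold change over √F. Comparisons were diet in each genotype and over both, genotype on each diet, and the interaction. With 3 against 3 libraries an exact permutation test of 1 gene cannot go below 0.1. Alternatives used DESeq2 1.42.0, limma 3.58.1 (voom, and log2 of FPKM plus a pseudocount), other filters and scalings, summed paralog rows, a replicate block, and single libraries left out. In a simulation of diet in flox over 16523 genes the test called 19.7%, 89.6% and 94.0% of genes changed by 1, 2 and 3 on the log2 scale, and 0.00638% of unchanged genes. It changed 66, 67 and 67 genes at these sizes, each with a mean of at least 1 CPM, and left 16323 unchanged. More genes than that were called in the data, so these rates need not hold for the real test. Pairs used 100000 permutations of all 12 libraries, without regard to group. Lists were counted, not tested. The text names the members, Lpcat3, called list genes among the 4 with the smallest p, and the 3 genes nearest in pattern to each member, in part. Alignments used Biopython 1.88.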

Additional observations from a re-analysis of the deposited data

How the results depend on the processing

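The 27 alternatives (26 for the interaction and for diet over both genotypes) included 1 chosen after the data were seen, which counted members by protein-coding transcripts. Apcs was called higher in both genotypes under each of them. Orm3 was called lower in both except where the orosomucoid rows were summed. That setting puts Saa1 and Saa2 in 1 row and the 3 orosomucoids in another. Orm3 has no row of its own there, and the member counts are over fewer than 10 rows. Members higher in flox, 3 as reported, became 5 in DESeq2 and in limma on log2(FPKM + 1) and log2(FPKM + 0.1), and members lower became 1 in those FPKM fits, in the unfiltered FPKM fit and with paralog rows summed. In the fits with 5, genes called higher in flox were 820, 2389 and 2195 of 16523, where the reported fit had 437. Genes lower in the 3 FPKM fits were 158, 161 and 102, the last of 26197, where the reported fit had 434. Members lower in cre, 2 as reported, became 4 with the replicate block and without both cre MCD 3 and flox control 3, and 1 in the 3 FPKM fits, with a log2 fold change of at least 1 required, and with paralogs summed. Genes lower in cre were 962 with the block, 474 without both libraries and 202, 211 and 105 in the FPKM fits, where the reported fit had 502. Over both genotypes, members higher became 5 in the filtered FPKM fits and 1 with the fold condition, and members lower became 1 with paralogs summed. Genes higher over both were 4624 and 4568 in those FPKM fits and 645 with the fold condition, where the reported fit had 1327. For genotype on MCD, members lower became 1 without a filter and in voom, 2 in log2(FPKM + 1) and without both libraries, and 3 in DESeq2. Genes lower in these fits were 16, 10, 76, 30 and 99 in the order given, where the reported fit had 2. Leaving out single libraries gave 1 to 5 members higher in flox, 1 to 3 lower in cre and 1 to 4 higher over both genotypes. Over all genes these fits gave 209 to 577 higher in flox, 142 to 883 lower in cre and 838 to 2104 higher over both. They tested 17091 to 17195 genes. The cause of these moves was not tested.

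Counts over all genes moved as well. DESeq2 called 1653 genes in flox, 2195 in cre, 168 for genotype on MCD, 60 for genotype on control diet and 95 for the interaction, where the reported fit called 871, 1118, 2, 7 and 1. Limma on log2(FPKM + 1) called 2547 in flox, 79 for genotype on MCD, 1 for genotype on control diet and 5077 over both genotypes, where the reported count was 2470. With 0.1 added the counts were 2356, 5 and 5017 for flox, MCD and both, and 2 for the interaction. Unfiltered FPKM gave 1821 in flox, 389 in cre, 31 on MCD, 2 on control diet, 2 for the interaction and 3873 over both. Values as FPKM moved the median log2 fold change of all genes in flox to 0.26 and 0.50, in cre to 0.11 and 0.25 and over both to 0.18 and 0.38 (1 and 0.1 added), and turned the split in flox from 437 higher and 434 lower to 2389 and 158. For genotype on MCD the count was 20 without a filter, 12 in voom, 5 with DESeq2 size factors and with a CPM of at least 1, 4 without ribosomal and mitochondrial rows and with protein-coding transcripts, 0 with only the 6 libraries, and 46 without both libraries, which also gave 1401 in flox and 8 for the interaction. The interaction had 8 without a filter and 0 in voom, and the fold condition left 1162 over both. Single libraries left out gave 425 to 1055 in flox, 319 to 1929 in cre, 0 to 10 on MCD, 2 to 7 on control diet, 1 to 2 for the interaction and 1534 to 3692 over both.

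Signs changed for values that were not called. Orm1 went to 0.077 in flox and 0.14 in cre in each FPKM fit. With paralogs summed, the row that holds Orm2 and Orm3 had −0.40 in flox, −0.15 in cre, 0.039 for genotype on MCD, 0.24 for the interaction and −0.27 over both. Saa3 in cre went to −0.010 with the CPM filter and −0.27 without both libraries, and Lcn2 in cre to −0.077 in voom. With single libraries left out, Saa3 in cre ran from −0.27 to 0.30, Orm1 in cre from −0.46 to 0.036 and Lcn2 in cre from −0.92 to 0.69. For genotype on MCD, Orm1 was −0.080 in each FPKM fit and −0.17 without both libraries, and it ran from −0.17 to 0.32 without single ones. For genotype on control diet, Saa1 was −0.0091 in voom and −0.035 with paralogs summed, Saa2 0.0033 and Saa4 0.095 without both libraries, and Saa4 0.0011, 0.0024 and 0.0011 in the FPKM fits (1 added, 0.1 added, unfiltered). Without single libraries Saa1 ran from −0.63 to 0.79, Saa2 from −0.70 to 0.043, Saa4 from −0.18 to 0.095 and Apcs from −0.029 to 0.42. For the interaction, Orm1 was −0.063 and Orm3 0.48 without both libraries, Orm3 was 0.013 with DESeq2 size factors and 0.012 in DESeq2, and it ran from −0.32 to 0.33 without single libraries. Saa1 over both genotypes was 0.13, 0.10 and 0.13 in the FPKM fits.

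Of 18 pairs of same-numbered libraries 15 had a positive correlation of deviations from the group means, and 8 were over 0.1 (median 0.079, from −0.043 to 0.517). Of 36 pairs of different number 12 were positive and 3 over 0.1 (median −0.056, from −0.541 to 0.196). A library correlated best with its own number in 24 of 36 checks, each among the 3 libraries of another group. Same-numbered libraries thus tended to deviate together, a hint from the data and not from the design. The labels state no pairing, and the reported fit does not include one. The replicate block called 2005 genes in cre and 6 for genotype on MCD, and among members it added Saa1 (adjusted p = 0.0222) and Saa2 (adjusted p = 0.0126) in cre, Lcn2 in flox and Saa2 over both genotypes. Depth limits Saa2 in cre MCD 1, with 4 counts.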
